A study of Mus musculus with 6 samples.

Results

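Wnt ligands are secreted lipid-modified proteins that bind Frizzled receptors together with the co-receptor Lrp5 or Lrp6. In the canonical branch this stops the destruction complex from degrading beta-catenin, which then enters the nucleus and works with TCF/LEF factors. Among the genes switched on are inhibitors of the pathway itself, the scaffold gene Axin2 and the ligase genes Rnf43 and Znrf3, so that their transcripts are widely read as an output of the pathway; in pancreatic cancer, loss of RNF43 is known to make cells depend on Wnt ligand. Described here are 10 genes chosen by name from 24493 in the expression table. They are the ligands Wnt7a, Wnt7b and Wnt10a, the receptors Fzd5 and Fzd6, the co-receptor Lrp6, the transducer Ctnnb1, which encodes beta-catenin, and the feedback genes Axin2, Rnf43 and Znrf3. Each was listed in all 6 libraries, and 7 of 10 reached the minimum used for testing, at least 1 TPM in at least 2 libraries. Wnt7b, Wnt10a and Axin2 did not.

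The libraries were made from KPCY cells, mouse pancreatic tumour cells of strain C57BL/6 from a tumour model with a yellow fluorescent lineage label. Cells carried 1 of 2 short hairpin RNAs against Pthlh, the gene of the secreted hormone PTHrP, called hairpin 1 (shPthlh_1, n = 2) and hairpin 2 (shPthlh_2, n = 2), or a non-targeting hairpin (shNT, n = 2). The study set cells with lowered Pthlh against cells with normal Pthlh in 2 parental clones, but no label ties a library to a clone, so hairpin and clone cannot be told apart. One label calls the cells sorted from tumours in mice, whereas the protocols describe culture and transduction, and no label says that replicates were separate cultures or animals; p-values therefore reflect library-to-library spread only, which may be technical. Values are TPM, an abundance per transcript length scaled to a total of 1000000 in each library, so that genes can be ranked within a library; the number of reads behind them is unknown.

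Pthlh itself was at 0 and 0.106 TPM in hairpin 1 cells and at 0.0423 and 0.263 TPM in hairpin 2 cells, against 0.752 and 0.966 TPM in shNT cells. All 4 hairpin libraries lay below both shNT libraries. The knockdown change was -0.76 ± 0.11 (log2, SE; limma adjusted p = 0.0431), a call lost in 12 of 16 alternative analyses, and hairpin 2 alone missed the threshold (limma adjusted p = 0.133). Of 7 ductal markers, Epcam stayed below 1 TPM in every library, and the marker sum was 4388 to 4456 TPM with hairpin 1 and 3759 to 3850 TPM with hairpin 2, against 3991 to 4150 TPM in shNT cells. Its members moved in both directions with hairpin 1: Krt19 changed by 1.21, Sox9 by 0.74 and Krt8 by 0.27, while Krt18 changed by -0.43, Cdh1 by -0.34 and Krt7 by -0.30 (log2, each past the threshold). The acinar marker sum, carried by Cela1, was 12.5 to 13.6 TPM with hairpin 1 and 11.2 to 11.6 TPM with hairpin 2, against 14.2 to 19.8 TPM in shNT cells (Cela1 knockdown change -0.43, limma adjusted p = 0.0398). All 7 fibroblast markers were below 1 TPM, their sum lying at 0.357 to 0.386, 0.423 to 0.453 and 0.286 to 0.522 TPM in the hairpin 1, hairpin 2 and shNT groups. A single short RNA entry, Mir6236, took 20.4% and 19.7% of all TPM with hairpin 1 and 23.4% and 21.4% with hairpin 2, against 34.1% and 24.3% in shNT cells. Its part was tested only as far as small-RNA entries were removed and the rest rescaled: the median gene then changed by -0.04 in the knockdown comparison; the Fzd5 and Fzd6 calls that this ended are given with those genes.

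Promoter windows were read from RefSeq (GRCm38.p6) for the 5 of 10 members that matched. The windows of Wnt7a, the member ligand that differed between the hairpins, and Axin2, the feedback gene that was nearly silent, are shown because they represent both ends of the ligand-to-output chain. Each is the 250 bases before the annotated start, read along the gene's own strand, and capitals mark GGGCGG on either strand, the GC box.
Wnt7a (chr6:91411354-91411603, minus strand): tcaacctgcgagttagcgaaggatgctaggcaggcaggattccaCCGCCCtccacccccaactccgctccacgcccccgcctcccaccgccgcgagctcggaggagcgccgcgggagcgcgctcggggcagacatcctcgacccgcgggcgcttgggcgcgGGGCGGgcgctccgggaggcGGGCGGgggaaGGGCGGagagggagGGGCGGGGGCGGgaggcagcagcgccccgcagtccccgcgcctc
Axin2 (chr11:108920099-108920348, plus strand): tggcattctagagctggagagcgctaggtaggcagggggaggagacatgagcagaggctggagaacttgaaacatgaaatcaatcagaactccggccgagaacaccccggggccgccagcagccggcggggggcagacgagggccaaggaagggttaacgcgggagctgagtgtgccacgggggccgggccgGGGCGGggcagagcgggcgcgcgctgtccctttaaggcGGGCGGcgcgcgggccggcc
The Wnt7a window held 6 GC boxes and 77.6% G or C, and the Axin2 window held 2 and 69.2%. GC boxes occur in 32.7% of 32851 such windows. A TCF/LEF motif (CTTTGAA, its variant CTTTGAT, its variant CTTTGTA or its variant CTTTGTT, on either strand) was in none of the 7 member windows and in 14.8% of all windows, which says only that these letters are absent from these stretches.

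Of the 7 members tested, 3 passed the threshold in the knockdown comparison, the mean of both hairpin means minus shNT: Fzd5 was higher, Wnt7a and Ctnnb1 lower. Over all 11549 genes tested, 39.4% passed (limma, Benjamini-Hochberg adjusted p under 0.05), so the share of members is near the background; 27.3% of genes were higher and 12.1% lower. With hairpin 1 alone 4 of 7 passed, where the background was 50.2%; with hairpin 2 alone 1 of 7 passed, where it was 9.63%. Hairpin 2 differed from hairpin 1 in 4 of 7, where the background was 40.1%, 19.9% higher and 20.2% lower. The median gene was shifted by 0.10 (log2) in the knockdown comparison, by 0.11 with hairpin 1 and by 0.09 with hairpin 2, and after median-ratio scaling by 0.01, 0.01 and 0.00; member changes are best read against that shift.

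**Figure D1:**
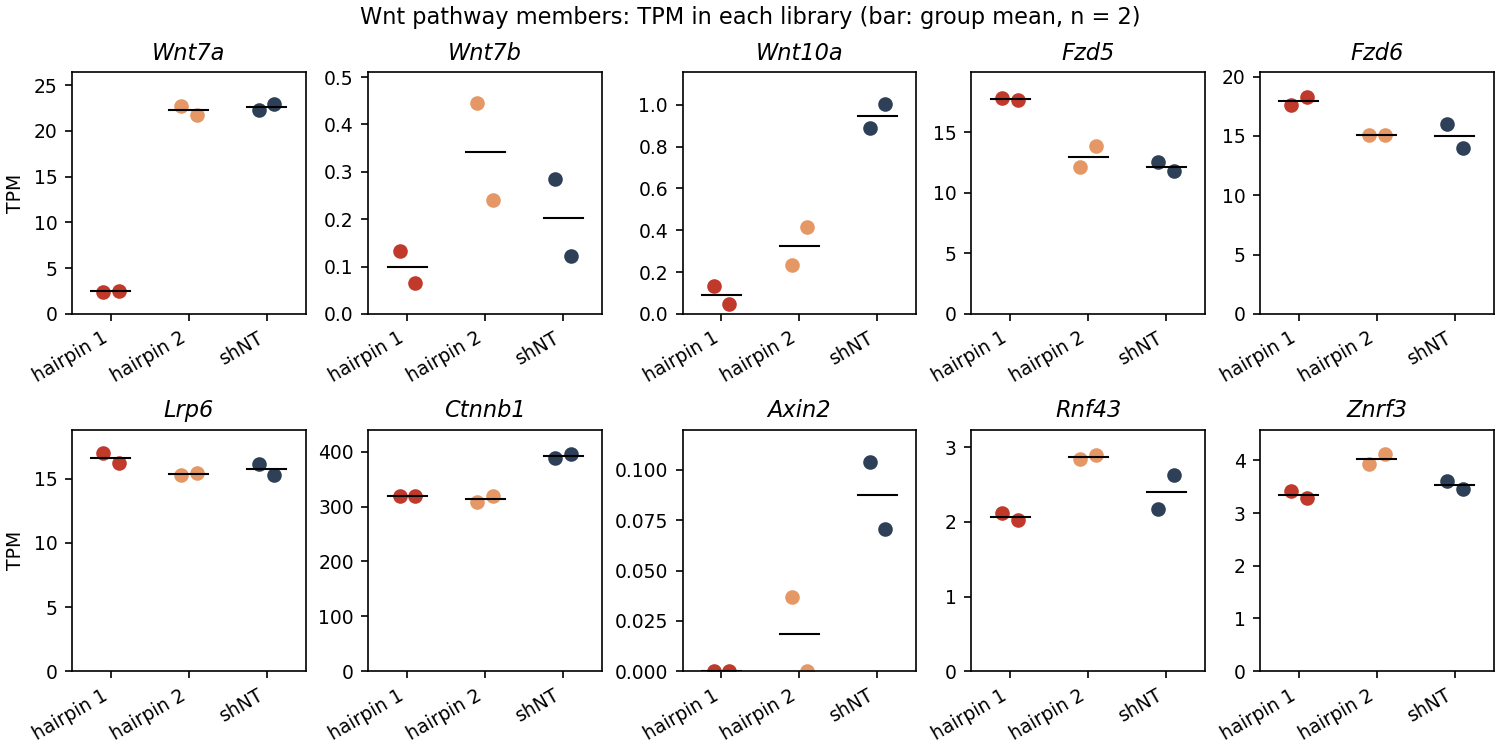
TPM of each of the 10 members (linear axes from 0) in the 2 libraries of hairpin 1, hairpin 2 and shNT; points are libraries and bars group means. Wnt7a is near 2.45 TPM with hairpin 1 and above 21 TPM in every other library, while Ctnnb1 is lower in all 4 hairpin libraries than in either shNT library.

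Among the ligands, Wnt7a (chromosome 6, 91363981 to 91411363, minus strand, mm10) was the highest in shNT cells; it encodes a ligand known from limb and reproductive tract patterning. It was at 2.39 and 2.51 TPM in hairpin 1 cells and 22.7 and 21.8 TPM in hairpin 2 cells, against 22.3 and 23.0 TPM in shNT cells. The hairpin 1 libraries stood apart from all others, and the hairpin 2 and shNT libraries overlapped. In such bulk samples, fewer cells that express a gene and less RNA per cell cannot be told apart. The hairpin 1 mean was 10.8% of the shNT mean, a change of -2.77 ± 0.05 (log2, SE; limma adjusted p = 1.63e-05). With hairpin 2 the change was -0.02 (95% interval -0.16 to 0.11; limma adjusted p = 0.789). The difference of hairpin 2 from hairpin 1 was 2.75 ± 0.05 (limma adjusted p = 2.61e-05). The knockdown value, -1.40 ± 0.05 (limma adjusted p = 0.000167), is thus an average of unlike hairpins. The call was lost when both were pooled as 1 group of 4 (limma adjusted p = 0.393). That fit called only 1 of 11549 genes, while 2567 of them and 1 of 7 members had an unadjusted limma p under 0.05.

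Wnt10a (chromosome 1, 74791516 to 74804179, plus strand), a ligand known from tooth, hair and skin development, was low in every library. It was at 0.134 and 0.0486 TPM in hairpin 1 cells and 0.234 and 0.415 TPM in hairpin 2 cells, against 0.888 and 1.00 TPM in shNT cells. All 4 hairpin libraries lay below both shNT libraries, and the group means were 9.67% and 34.3% of the shNT mean with hairpins 1 and 2. In the fit without the minimum, 11% of 24493 genes passed in the knockdown comparison, 17.6% with hairpin 1, 1.5% with hairpin 2 and 12.8% between the hairpins. The knockdown change was -0.70 ± 0.08 (log2, SE; limma adjusted p = 0.0265). It was -0.83 for hairpin 1 (limma adjusted p = 0.0161) and -0.56 for hairpin 2 (limma adjusted p = 0.107). The knockdown call was lost in 9 of 16 alternatives and the hairpin 1 call in 6, and the log2 scale with 1 TPM added understates changes at such levels: with 0.1 TPM added the knockdown change was -1.91 (limma adjusted p = 0.0505). Wnt7b (chromosome 15, 85535437 to 85582473, minus strand), a close relative of Wnt7a, stayed between 0.0661 and 0.445 TPM in every library. Each hairpin group overlapped shNT while the hairpin groups did not overlap each other, and no comparison passed (lowest limma adjusted p = 0.261, for the difference between the hairpins).

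The other ligands give the setting of Wnt7a. Summed over 19 Wnt genes, the ligand level was 8.69 and 9.24 TPM in hairpin 1 cells and 27.2 and 26.0 TPM in hairpin 2 cells, against 28.4 and 29.7 TPM in shNT cells. Wnt7a made up 27.5% and 27.2% of it with hairpin 1 and 83.5% and 83.7% with hairpin 2, against 78.6% and 77.4% in shNT cells. Without Wnt7a the sum was 6.29 and 6.73 TPM in hairpin 1 cells and 4.50 and 4.24 TPM in hairpin 2 cells, against 6.08 and 6.73 TPM in shNT cells. The sum without Wnt7a overlapped between hairpin 1 and shNT. Wnt4, a ligand known from kidney and gonad development, was the most abundant ligand in both hairpin 1 libraries, at 4.76 and 5.07 TPM, with 1.67 and 1.27 TPM in hairpin 2 and 0.963 and 1.03 TPM in shNT cells. Its change was 1.57 ± 0.11 with hairpin 1 (log2, SE; limma adjusted p = 0.000414), compared with 0.30 for hairpin 2 (limma adjusted p = 0.136). Wnt10b, a ligand known to oppose fat cell formation, was at 0.464 and 0.630 TPM in hairpin 1 cells and 1.49 and 1.55 TPM in hairpin 2 cells, against 2.41 and 3.11 TPM in shNT cells. It changed by -1.28 with hairpin 1 (limma adjusted p = 0.00116), whereas the hairpin 2 value of -0.57 missed the threshold (limma adjusted p = 0.0539) but passed in 5 of 17 alternatives. Of the 19 ligand genes, 15 were below 1 TPM in every library.

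**Figure D2:**
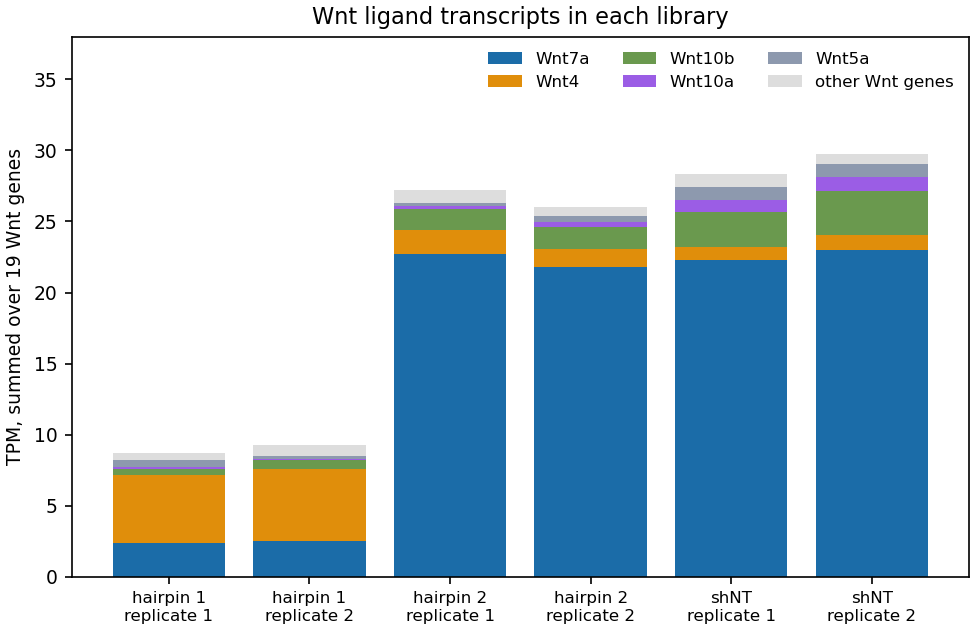
Stacked TPM of 19 Wnt ligand genes in each of the 6 libraries (linear axis from 0). Wnt7a fills 77.4% to 83.7% of the bar in the hairpin 2 and shNT libraries and 27.2% to 27.5% in the hairpin 1 libraries, where Wnt4 is the largest segment.

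Fzd5 (chromosome 1, 64730558 to 64737751, minus strand) encodes a Frizzled receptor on which RNF43-mutant human pancreatic cancer cells are known to depend. It was at 17.8 and 17.7 TPM in hairpin 1 cells and 12.2 and 13.8 TPM in hairpin 2 cells, against 12.6 and 11.8 TPM in shNT cells. Both hairpin 1 libraries were above all others, and hairpin 2 overlapped shNT. Fzd5 rose with hairpin 1 by 0.51 ± 0.07 (log2, SE; limma adjusted p = 0.00312), a call kept in all 18 alternatives run. With hairpin 2 the change was 0.09 (limma adjusted p = 0.448), and the difference of hairpin 2 from hairpin 1 was -0.43 (limma adjusted p = 0.00774). The knockdown call, 0.30 ± 0.06 (limma adjusted p = 0.0169), was lost in 7 of 18 alternatives, among them median-ratio scaling (limma adjusted p = 0.0524) and removal of small-RNA entries (0.15, limma adjusted p = 0.296).

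Fzd6 (chromosome 15, 39006034 to 39038188, plus strand), a Frizzled known chiefly from planar cell polarity, was at 17.6 and 18.3 TPM in hairpin 1 cells and 15.1 and 15.1 TPM in hairpin 2 cells, against 16.0 and 14.0 TPM in shNT cells. The hairpin 1 libraries were highest. Its hairpin 1 change was 0.25 ± 0.07 (log2, SE; limma adjusted p = 0.0347), and the call was lost in 12 of 18 alternatives, the value being 0.15 under median-ratio scaling (limma adjusted p = 0.171); it was 0.08 once small-RNA entries were removed (limma adjusted p = 0.653). Lrp6 (chromosome 6, 134446476 to 134566965, minus strand), the co-receptor, was at 17.0 and 16.3 TPM in hairpin 1 cells and 15.3 and 15.5 TPM in hairpin 2 cells, against 16.2 and 15.3 TPM in shNT cells. Both hairpin 1 libraries lay above every other library, and hairpin 2 overlapped shNT. No comparison of Lrp6 passed: the change was 0.08 with hairpin 1 (95% interval -0.05 to 0.21) and -0.03 with hairpin 2 (95% interval -0.16 to 0.10), and the sign of the hairpin 1 value differed in 4 of 18 alternatives. Lrp5, the other co-receptor, was at 49.0 and 49.2 TPM in hairpin 1 cells and 60.9 and 63.3 TPM in hairpin 2 cells. Its shNT values were 69.2 and 59.0 TPM. Lrp5 changed by -0.37 with hairpin 1 (log2, limma adjusted p = 0.0118), a call lost in 3 of 18 alternatives. With hairpin 2 its change was -0.04 (limma adjusted p = 0.757).

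Summed over 10 Frizzled genes, the level was 54.9 and 55.1 TPM in hairpin 1 cells and 40.0 and 42.5 TPM in hairpin 2 cells, against 44.2 and 41.1 TPM in shNT cells. Fzd5 and Fzd6 together held 64.6% and 65.3% of it with hairpin 1 and 68.1% in each hairpin 2 library, against 64.7% and 62.7% in shNT cells. Of 14 receptors and co-receptors tested, 5 rose and 8 fell with hairpin 1, and 0 rose and 5 fell with hairpin 2, where 32.1% and 18.1% of all genes were called higher and lower with hairpin 1 and 6.62% and 3% with hairpin 2. After median-ratio scaling that balance over all genes turned, to 2623 higher and 2802 lower with hairpin 1 and 244 higher and 554 lower with hairpin 2. The median change of the 14 was -0.32 with hairpin 1 and -0.12 with hairpin 2, beside 0.11 and 0.09 for all genes. The 14 include genes that reached the minimum only through the group where they were high. Adgra2, a fall with each hairpin, was at 2.22 and 1.67 TPM in shNT cells and below 1 TPM in every hairpin library. Ror2, also a fall with each, exceeded 1 TPM outside shNT cells only in 1 hairpin 1 library (1.13 TPM). Fzd8, a rise with hairpin 1, was at 1.71 and 1.69 TPM there. Fzd8 exceeded 1 TPM elsewhere only in 1 shNT library (1.07 TPM). Ptk7, a co-receptor of planar cell polarity, was at 8.43 and 9.17 TPM in hairpin 1 cells and 14.9 and 14.6 TPM in hairpin 2 cells, against 19.3 and 19.8 TPM in shNT cells. It fell by 1.07 with hairpin 1 (log2; limma adjusted p = 0.000184) and by 0.39 with hairpin 2 (limma adjusted p = 0.0252). Ror1, a receptor of non-canonical Wnt ligands, was at 0.566 and 0.407 TPM in hairpin 1 cells and 2.55 and 2.14 TPM in hairpin 2 cells, against 2.90 and 2.74 TPM in shNT cells (hairpin 1 -1.36, limma adjusted p = 0.000623; hairpin 2 -0.19, limma adjusted p = 0.29). Fzd2, Ror2, Ryk and Adgra2 fell with each hairpin, by 0.80, 0.53, 0.27 and 0.70 with hairpin 1 and by 0.49, 0.95, 0.32 and 0.68 with hairpin 2. For Ptk7, Fzd2, Ror2 and Ryk the hairpin 2 call was lost in 6 to 10 of the alternatives run. The hairpin 1 call was lost in 5 of 18 for Ryk and 3 of 17 for Ror2. Centring each chromosome on its own median ended the Ryk call with each hairpin. For Adgra2 the hairpin 2 call was close to the threshold (limma adjusted p = 0.0473). Of the alternatives, only median-ratio scaling was looked at for Adgra2 (limma adjusted p = 0.0474). Fzd1 and Fzd7 rose with hairpin 1 by 0.67 and 0.65 (limma adjusted p = 0.00302 and 0.00753).

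**Figure D3:**
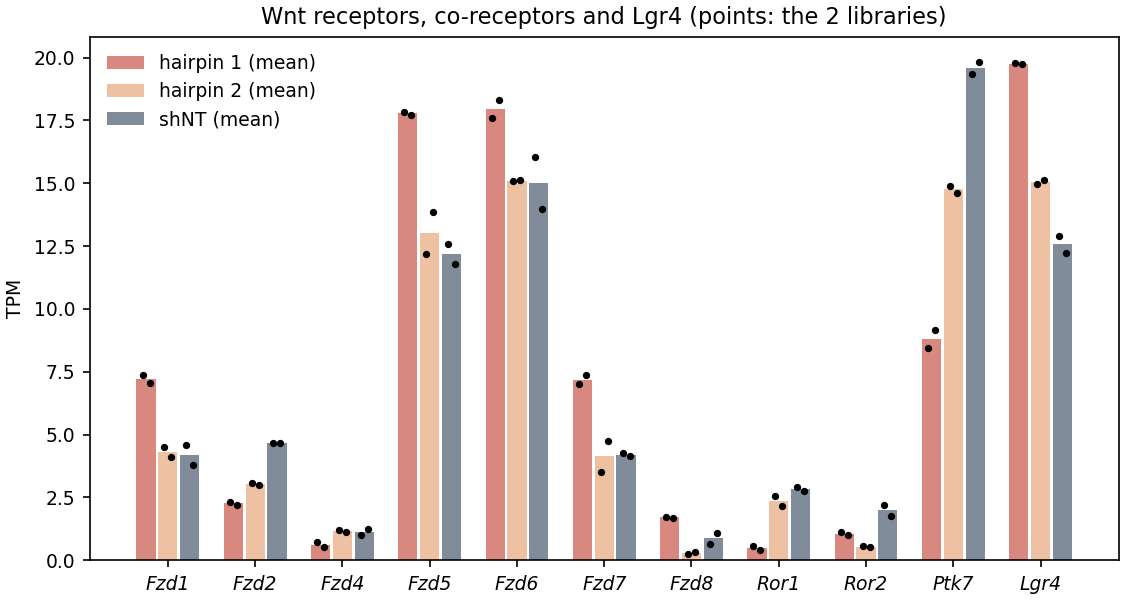
TPM of Wnt receptors, co-receptors and the R-spondin receptor gene Lgr4 (linear axis from 0), with bars for group means, points for the 2 libraries, and hairpin 1, hairpin 2 and shNT from left to right. Fzd1, Fzd5, Fzd7 and Lgr4 are highest with hairpin 1, whereas Fzd2, Ror1 and Ptk7 are lowest there.

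Ctnnb1 (chromosome 9, 120929216 to 120960507, plus strand), the most abundant member, was the only member called with each hairpin. It was at 319 and 320 TPM in hairpin 1 cells and 308 and 318 TPM in hairpin 2 cells, against 388 and 396 TPM in shNT cells. All 4 hairpin libraries lay below both shNT libraries. It fell by 0.29 ± 0.05 with hairpin 1 (log2, SE; limma adjusted p = 0.00428) and by 0.32 ± 0.05 with hairpin 2 (limma adjusted p = 0.0238), and the difference between the hairpins was -0.03 (limma adjusted p = 0.65). The hairpin 2 call was lost in 7 of 18 alternatives, among them each of the 4 hairpin libraries left out (limma adjusted p = 0.0801 to 0.17), while the hairpin 1 call was kept in all 18. The knockdown call (-0.31, limma adjusted p = 0.0044) was lost only with the hairpins pooled as 1 group of 4 (limma adjusted p = 0.112), a fit that called 1 of 11549 genes. In an exact two-sided permutation test, 4 hairpin libraries against 2 of shNT, p was 0.1333, which is as low as 15 splits can go. Transcript level says nothing of the amount or place of beta-catenin protein, which was not measured.

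Other genes of chromosome 9 moved the same way. The median change of 643 other tested genes there was -0.13 with hairpin 1 and -0.10 with hairpin 2, and 66.3% and 65.3% of them were below 0, beside 38.6% and 30.4% of all genes. Ctnnb1 fell further than the chromosome's median, with 28.9% of those genes lower with hairpin 1 and 11.2% with hairpin 2. After each chromosome was centred on its own median, its change was -0.16 for hairpin 1 (limma adjusted p = 0.0365) and -0.22 for hairpin 2 (limma adjusted p = 0.06). The part of the chromosome-wide shift in the Ctnnb1 result was not tested beyond this.

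**Figure D4:**
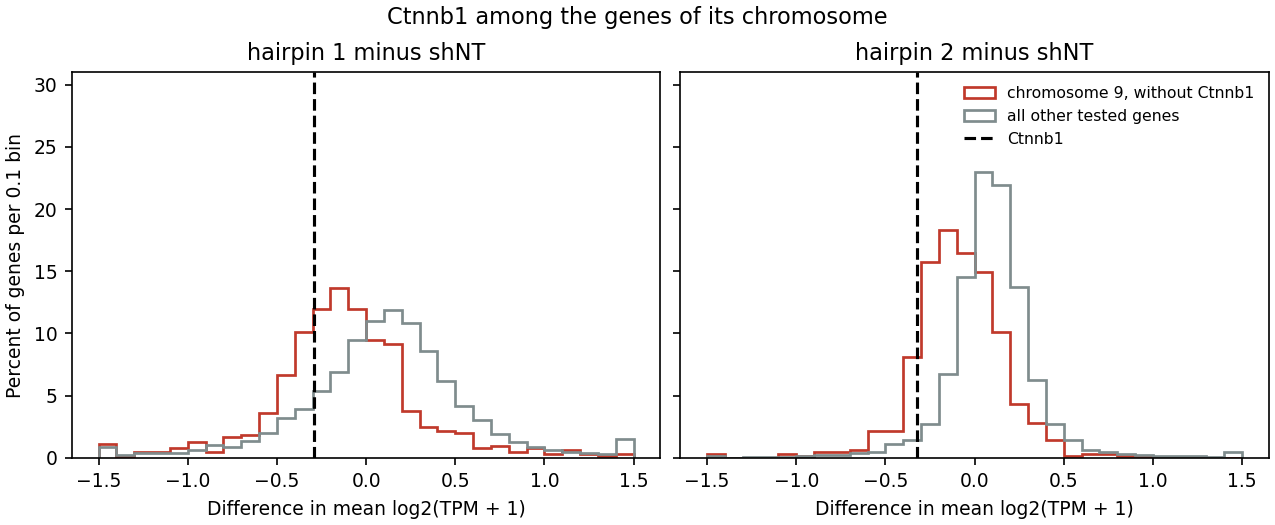
Distribution of the difference in mean log2(TPM + 1), in percent of genes per bin, for chromosome 9 genes and all other tested genes with hairpin 1 (left) and hairpin 2 (right); the end bins hold all values beyond them and the dashed line is Ctnnb1. The chromosome 9 curve lies left of the other in both panels, with medians of -0.13 and -0.10, and Ctnnb1 at -0.29 and -0.32 lies left of both peaks.

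The feedback genes were low. Axin2 (chromosome 11, 108920349 to 108950783, plus strand), a scaffold of the destruction complex and a direct beta-catenin target, was listed at 0 in both hairpin 1 libraries and at 0.0371 and 0 TPM with hairpin 2, against 0.104 and 0.0709 TPM in shNT cells. No fold is given against values at 0, and with unknown depth these levels may rest on very few reads. The change without the minimum was -0.12 for hairpin 1 (limma adjusted p = 0.0625) and -0.09 for hairpin 2 (limma adjusted p = 0.216). The hairpin 1 value passed (limma adjusted p = 0.0464) only when genes at 0 in every library were left out of the fit, an alternative chosen after seeing the data.

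Rnf43 (chromosome 11, 87662722 to 87735539, plus strand), a ligase that removes Frizzled receptors from the surface, was at 2.11 and 2.03 TPM in hairpin 1 cells and 2.84 and 2.90 TPM in hairpin 2 cells, against 2.18 and 2.63 TPM in shNT cells. Neither hairpin passed against shNT (limma adjusted p = 0.26 and 0.243). Hairpin 2 was above hairpin 1 by 0.33 ± 0.10 (log2, SE; limma adjusted p = 0.0431), a call lost in 6 of 17 alternatives. Znrf3 (chromosome 11, 5276324 to 5444847, minus strand), its paralog with the same role, was at 3.42 and 3.28 TPM in hairpin 1 cells and 3.93 and 4.13 TPM in hairpin 2 cells, against 3.60 and 3.46 TPM in shNT cells. No comparison of Znrf3 passed (difference between the hairpins 0.21, limma adjusted p = 0.0691). Lgr4, the receptor through which R-spondins hold these ligases off, was at 19.8 and 19.7 TPM in hairpin 1 cells and 14.96 and 15.12 TPM in hairpin 2 cells, against 12.9 and 12.2 TPM in shNT cells. It rose with hairpin 1 by 0.61 (log2, limma adjusted p = 0.000545) and with hairpin 2 by 0.24 (limma adjusted p = 0.0424, lost in 13 of 18 alternatives). Of 9 genes for R-spondins, their receptors and these ligases, 6 were below 1 TPM in every library. Those were the R-spondin genes, Lgr5 and Lgr6.

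**Figure D5:**
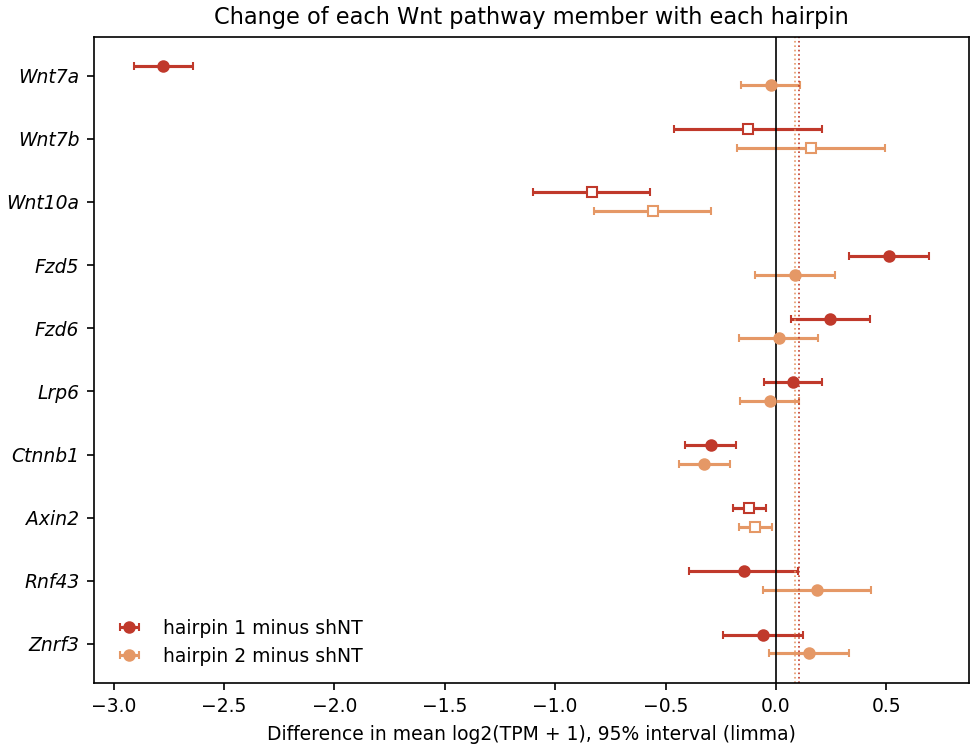
Difference in mean log2(TPM + 1) from shNT for each member with hairpin 1 and hairpin 2, with 95% limma intervals; open squares are members fitted without the minimum and dotted lines the median of all tested genes. Ctnnb1 lies at -0.29 and -0.32 with hairpins 1 and 2, whereas Wnt7a lies at -2.77 and -0.02.

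The rest of the pathway was counted by role. All 12 secreted antagonists, such as the Dkk and Sfrp genes, were below 1 TPM in every library. Of 21 beta-catenin target genes, Axin2, Rnf43 and Znrf3 included, 11 were below 1 TPM throughout. Of the 10 tested, 2 rose and 5 fell with hairpin 1, and 0 rose and 1 fell with hairpin 2. Among all genes, 50.2% and 9.63% passed in either direction. By direction, 32.1% were higher and 18.1% lower with hairpin 1, and 6.62% and 3% with hairpin 2. The median change of the 10 was -0.32 with hairpin 1 and 0.02 with hairpin 2, beside 0.11 and 0.09 for all genes. The cyclin gene Ccnd1 was at 240.0 and 239.5 TPM in hairpin 1 cells and 388 and 394 TPM in hairpin 2 cells, against 434 and 404 TPM in shNT cells (hairpin 1 -0.80, limma adjusted p = 0.000327; hairpin 2 -0.10, limma adjusted p = 0.258). The adhesion receptor gene Cd44 and the growth factor gene Bmp4 fell with hairpin 1 by 0.65 and 0.77. Their hairpin 2 changes were upward, 0.01 and 0.11 (limma adjusted p = 0.896 and 0.188). Over 18 alternatives the Cd44 hairpin 1 value ranged from -0.83 to -0.37. Sox9, a progenitor factor, and Apcdd1, a Wnt inhibitor at the membrane, rose with hairpin 1 by 0.74 and 0.77 and had hairpin 2 values of -0.02 and 0.02. Tcf7, a TCF/LEF factor and itself a target, was at 1.24 and 1.37 TPM in hairpin 1 cells and 1.77 and 2.04 TPM in hairpin 2 cells, against 3.80 and 3.24 TPM in shNT cells; it fell by 0.97 (limma adjusted p = 0.00146) and 0.64 (limma adjusted p = 0.0311), the second of these calls lost in 8 of 17 alternatives.

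Of 13 cytoplasmic genes tested, 3 rose and 4 fell with hairpin 1, and 1 rose and 1 fell with hairpin 2, near the background shares of 50.2% and 9.63% for either direction. Among the kinase genes of the destruction complex, Gsk3a was at 72.4 and 69.9 TPM in hairpin 1 cells and 63.3 and 62.0 TPM in hairpin 2 cells, against 53.8 and 56.0 TPM in shNT cells (hairpin 1 0.37, limma adjusted p = 0.00188; hairpin 2 0.19, limma adjusted p = 0.0572). Without small-RNA entries its hairpin 1 call was lost (0.19, limma adjusted p = 0.106). Gsk3b was at 12.3 and 11.1 TPM in hairpin 1 cells and 15.6 and 16.0 TPM in hairpin 2 cells, against 16.0 and 15.2 TPM in shNT cells (hairpin 1 -0.39, limma adjusted p = 0.00508; hairpin 2 0.01, limma adjusted p = 0.903), and chromosome centring ended its hairpin 1 call (-0.17, limma adjusted p = 0.0705). Csnk1a1 rose with hairpin 1 by 0.22 (limma adjusted p = 0.00739) and had a hairpin 2 value of 0.01. Median-ratio scaling ended its hairpin 1 call (0.12, limma adjusted p = 0.0525). Of 10 nuclear factors tested, 1 rose and 5 fell with hairpin 1, and 0 rose and 1 fell with hairpin 2. Calls in either direction were again near those shares. By direction, 32.1% of all genes were higher and 18.1% lower with hairpin 1, a balance that turned after median-ratio scaling. Wls, which carries Wnt ligands to the surface, and Porcn, which attaches their lipid, passed with neither hairpin; Wls was at 67.8 and 66.1 TPM in hairpin 1 cells and 78.3 and 76.8 TPM in hairpin 2 cells, against 69.6 and 73.3 TPM in shNT cells. Wls differed between the hairpins by 0.21 (limma adjusted p = 0.017). After median-ratio scaling both were called lower with hairpin 1 (Wls -0.20, limma adjusted p = 0.0143; Porcn -0.31, limma adjusted p = 0.0231).

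Genes with a pattern most like the lowest members were sought over the 6 libraries by Pearson r of log2(TPM + 1), as a description. Among 8322 genes with a mean of at least 5 TPM, the closest to Axin2 were Plekho2 (r = 0.989), Mtmr7, Relb, Yaf2 and Rcan3. The closest to Wnt7b were Ppp3ca (r = 0.979), Mtg2, Snx21, Taf1c and Ubr4. In all, 39 genes reached r = 0.95 or more for Axin2 and 14 for Wnt7b, both members being near 0 TPM. For Wnt7a, added after its values were seen, 747 genes reached r = 0.95 or more, led by Surf6 and the endocytic receptor gene Lrp2, which was at 2.93 TPM with hairpin 1 and 17.5 TPM with hairpin 2, against 18.1 TPM in shNT cells. Points of 1 group share their hairpin, so any gene that sets 1 group apart scores high.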

How the data were processed

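RNA was sequenced from 6 libraries in 3 groups of 2, taken from the sample titles. The authors deposited TPM for 24493 genes, summing to 1000000 in every library. The submitters' processing notes name Salmon, DESeq2, R 3.5 and the mm10 build; what DESeq2 was used for and whether counting used strand are not given in the sources used here. Depth is unknown, so no counting interval is given. Exons of Ctnnb1 overlap Mir7090 on the same strand and Ulk4 on the opposite strand. Those of Wnt7b, Fzd5, Fzd6 and Axin2 overlap genes on the opposite strand. Strand cannot separate the reads of Ctnnb1 and Mir7090, and whether it separated the others is unknown.

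TPM were tested as log2(TPM + 1) with limma 3.58.1 in R 4.3.3, in a model of 3 group means fitted to the 6 libraries, the variance prior following expression. Genes with at least 1 TPM in at least 2 libraries were kept (11549), and p-values were adjusted over all of them by the Benjamini-Hochberg method (threshold 0.05). Wnt7b, Wnt10a, Axin2 and Pthlh came from the same model over all 24493 genes. A second version of that model, over the 18323 genes above 0 in any library, was added after seeing the data. Positions came from GENCODE M21 and promoters from RefSeq. The fit was tested on simulated data.

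The members, lists and tests were chosen with earlier results of these data known. The rule for naming genes took the 10 members, Pthlh and up to 4 others per pathway list with the smallest knockdown p. It also took ligands or receptors with a mean of at least 5 TPM. Of the genes so picked, Tnks2, Ctnnbip1, Tle3 and Tle4 are not described singly. Adgra2, Fzd8, Apcdd1, Sox9, Csnk1a1 and the single cell type markers were named after their values were seen. Alternatives covered the pseudocount, filter, scaling, variance prior, replicate block, samples in the fit, chromosome centring and each library left out.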

Additional observations from a re-analysis of the deposited data

Results flagged for a closer look

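Members for which the test of hairpin 2 minus hairpin 1 passed the threshold are listed, since the hairpins then differ under the same contrast with shNT. Wnt7a differed by 2.75 (log2; limma adjusted p = 2.61e-05), the larger hairpin 2 value lying near shNT. Fzd5 differed by -0.43 (limma adjusted p = 0.00774), a call lost without either hairpin 1 replicate (limma adjusted p = 0.0525 and 0.0507). Fzd6 differed by -0.23 (limma adjusted p = 0.0486) and Rnf43 by 0.33 (limma adjusted p = 0.0431), calls lost in 11 of 18 and 6 of 17 alternatives. Groups of 2 libraries were too small for a check of single outlying libraries.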

How the results depend on the processing

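Over 40 member results and 688 alternative values, 0 calls reversed, 62 were lost and 5 gained. A further 38 values differed in sign from the main fit with no call in either. The count of members called in the knockdown comparison (3) was 2 to 4 with each library left out and 0 with the hairpins pooled as 1 group of 4, where 1 of 7 members had an unadjusted p under 0.05 and limma called 1 of 11549 genes. The hairpin 1 count (4) was 3 to 4 with each library left out. The hairpin 2 count (1) was 2 without small-RNA entries, where Wnt10a passed the minimum so that 8 members were tested (Wnt10a -0.73, limma adjusted p = 0.0451), and 0 with a replicate block, with only the groups compared and with chromosome centring, where 1, 1 and 2 members had an unadjusted p under 0.05; it was 0 to 1 with each library left out. It was 0 without either replicate of hairpin 1 or of hairpin 2, with 1 member at an unadjusted p under 0.05 each time. The count for hairpin 2 minus hairpin 1 (4) was 2 with no filter and 2 with a replicate block, and 1 to 4 with each library left out. It was 1 without either hairpin 1 replicate and 2 without either hairpin 2 replicate. The cause of these moves was not tested.

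Replicate numbers did not pair the libraries (correlation of replicate differences 0.021 for hairpin 1 and shNT, 0.015 for hairpin 2 and shNT, -0.044 between the hairpins, over 11549 genes). Among all genes, the share of knockdown calls that were higher was 69.2% in deposited TPM, 44.7% after median-ratio scaling and 33.1% without small-RNA entries. For Wnt10a, Axin2 and Pthlh, leaving out genes at 0 in every library, chosen after seeing the data, lowered the knockdown limma adjusted p to 0.00742, 0.0552 and 0.012, against 0.0265, 0.0753 and 0.0431 over all genes. Chromosome centring gave no value for genes under the filter. Unknown depth limits what can be said of Axin2, Wnt7b and Wnt10a.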
